A study of Mus musculus with 2 samples.

Results

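Basal-gated cells of the TripleTg prostate tumour library are described here. A cell was taken as basal-gated when it had at least 1 UMI of Epcam, the epithelial adhesion gene, no UMI of the leukocyte gene Ptprc, and at least 20 UMIs of Krt5, Krt14 and Krt15 together per 10000 UMIs of the cell. A unique molecular identifier (UMI) marks 1 captured RNA molecule. This gate held 818 of the 7687 Epcam+ Ptprc- cells and of the 9492 cells of the library, which is 10.6% of the Epcam+ Ptprc- cells (95% exact binomial interval 9.96 to 11.4). The comparator was the 6632 Epcam+ Ptprc- TripleTg cells with under 10 per 10000, called non-basal below, and 237 cells between the limits were left out of both. The 2101 DoubleTg cells in the same gate serve as context only.

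The series is single-cell RNA-seq of mouse prostate tumour tissue, with 1 library per genotype. DoubleTg mice were hHGFtg:H11hMET/+:PBCre4. They carried a ubiquitous human HGF transgene (hHGFtg) and a human MET transgene (hMETtg) with a CAG promoter and a stop cassette that Cre removes. TripleTg mice were hHGFtg:H11hMET/+:Ctnnb1L(Ex3)/+:PBCre4, so that Cre also deleted exon 3 of 1 Ctnnb1 allele, which leaves a stabilised β-catenin protein. Cre was driven by the probasin promoter of PB-Cre4, which is active in prostate epithelium, and cells in which Cre did not act keep the stop cassette and exon 3. The mice came from mixed C57BL/6 and C3H SCID backgrounds, and their age and number in these libraries were not given in the sources used here. The tissue was chosen by pathology, labelled prostatic adenocarcinoma in DoubleTg and prostatic carcinoma in TripleTg, and a difference between the libraries cannot be told apart from the animal, the dissected piece or the run.

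Basal cells are the layer of the prostate epithelium that rests on the basement membrane beneath the secretory luminal cells. They are anchored there by hemidesmosomes and laminin-332, are tied to each other by desmosomes and express the transcription factor p63, and they can give rise to luminal cells in development and regeneration. Canonical Wnt signalling acts through β-catenin, which enters the nucleus when it is not degraded and drives TCF/LEF target genes. Several of these targets, among them Axin2, Nkd1, Notum and Rnf43, encode inhibitors that feed back on the pathway.

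The basal-gated TripleTg cells held 19015719 UMIs, with a median of 21960.5 UMIs and 3791 genes per cell. The non-basal cells had a median of 22697.5 UMIs, so that depth was similar in both TripleTg classes, while the DoubleTg basal-gated cells were shallower at 13423 UMIs. The median mitochondrial share was 3.04% in basal-gated and 3.30% in non-basal TripleTg cells. The libraries shared 30 cell barcodes, 0.316% of the TripleTg barcodes. UMIs were summed over the cells of a class and given per 1000000 UMIs of the class (CPM), and all ratios below are log2 ratios of CPM with 95% intervals that cover counting error only. There were no replicates, so no difference has a test, and genes past 2-fold are counted as a description.

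The gate itself drew on 3 keratins whose levels are therefore no result. Krt14 was at 2591 CPM, Krt5 at 1442 CPM and Krt15 at 1346 CPM in the basal-gated cells, against 29.8, 9.36 and 9.78 CPM in the non-basal cells. The median keratin sum was 46.7 per 10000 UMIs, with 24.8 at the 10th and 99.9 at the 90th percentile. Krt14 was the most abundant of the 3 in 477 cells, Krt15 in 240 and Krt5 in 91, and 437 cells held UMIs of all 3. In the DoubleTg gate Krt15 led in 1625 of 2101 cells and had 6018 CPM. Krt15 had a UMI in 60.4% of the TripleTg and 98.6% of the DoubleTg basal-gated cells, and the TripleTg cells were the deeper ones. These shares depend on the gate too and are no result either.

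The threshold cut through a gradient and not through a gap. There were 38 cells just inside it, at 20 to 22 per 10000, and 55 just outside, at 18 to 20. Col17a1, the collagen XVII chain of hemidesmosomes, was at 80.6 CPM just inside and 80.2 CPM just outside, and Trp63, the p63 gene, at 35.8 and 42.8 CPM. Over the wider bins Col17a1 increased from 1.41 CPM in cells without these keratin UMIs to 71.0 CPM at 10 to 20, 136 CPM at 20 to 40 and 429 CPM at 80 and over. The luminal keratin Krt8 went the other way, from 5154 CPM through 2332 and 1613 CPM to 497 CPM in the same bins. Axin2 stayed between 45.7 and 82.6 CPM over all 7 bins.

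**Figure D1:**
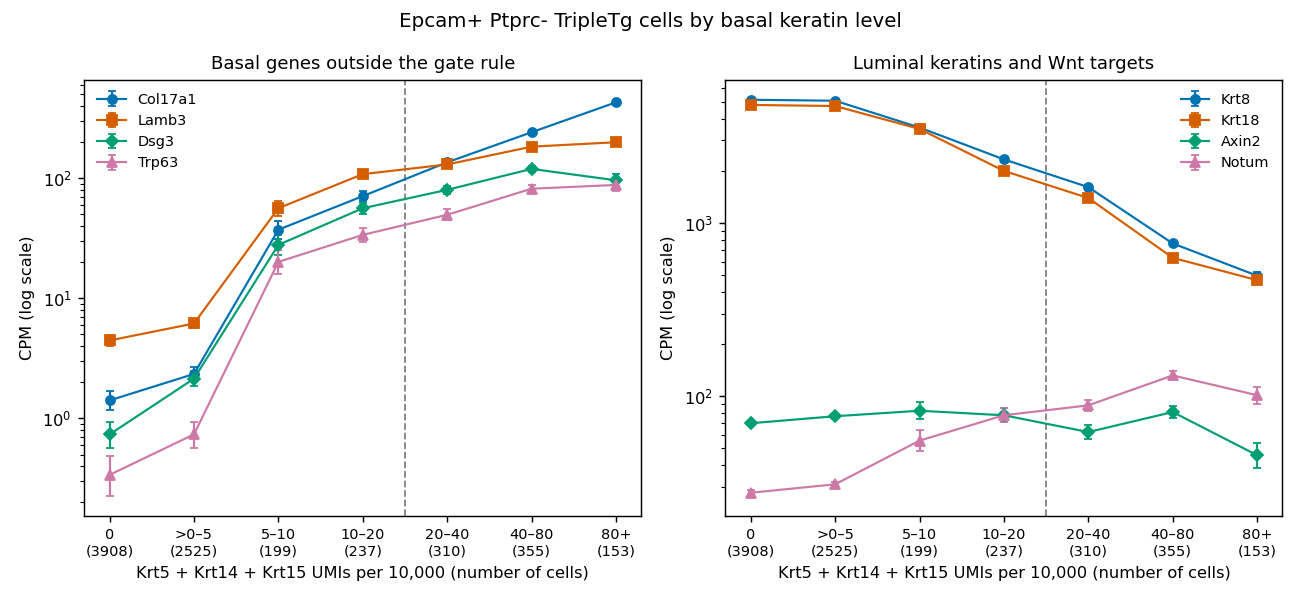
Summed expression in CPM (log axis) of basal genes outside the gate rule (left) and of luminal keratins and Wnt targets (right) in Epcam+ Ptprc- TripleTg cells binned by the sum of Krt5, Krt14 and Krt15 per 10000 UMIs, with cell numbers in brackets, exact Poisson 95% bars and the gate threshold as a dashed line. Col17a1 climbs from 1.41 to 429 CPM and Krt8 drops from 5154 to 497 CPM across the bins, while Axin2 lies between 45.7 and 82.6 CPM.

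Basal markers that the gate did not use were high in the basal-gated cells. Col17a1 (chromosome 19, 47646344 to 47692094, GRCm38, minus strand) was at 232 CPM against 2.62 CPM in the non-basal cells, a log2 ratio of 6.47 (6.33 to 6.61). It had a UMI in 630 of 818 basal-gated cells and in 4.83% of non-basal cells. Trp63 (chromosome 16, 25683763 to 25892102, plus strand) was at 70.5 against 0.95 CPM, a log2 ratio of 6.21 (5.98 to 6.45), with a UMI in 50.9% and 1.58% of the cells. After each cell was thinned to 5000 UMIs, which left out 53 basal-gated and 958 non-basal cells, Col17a1 was seen in 54.9% of basal-gated cells and Trp63 in 24.3%. In Ptprc+ Epcam- immune cells, which should lack both genes, the thinned shares were 1.04% and 0.518%, at a median depth of 8524 UMIs before thinning.

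Genes were compared when they reached 5 CPM in one class or the other. Of these 9012 genes, 912 were at least 2-fold higher (10.1%) and 831 at least 2-fold lower (9.22%) in the basal-gated cells, and the median of all these genes was 0.05. With each cell weighted equally the split was 782 higher and 1122 lower. The hemidesmosome and laminin-332 list, the anchoring apparatus, had 8 of 11 genes at least 2-fold higher and none lower, with a median of 1.90. Lamb3, a laminin-332 chain, was at 166 against 6.39 CPM (log2 ratio 4.69). Lama3, another chain, reached 122 against 14.1 CPM and Itgb4, the β4 integrin of hemidesmosomes, 156 against 19.9 CPM. Dst, the plakin that links them to keratin, was at 317 against 26.2 CPM. The 3 genes within 2-fold were Itga6, Plec and Cd151, and Itga6 had 306 against 224 CPM.

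Cell-cell junction genes were higher as well, with 6 of 9 tested desmosome and P-cadherin genes past 2-fold and a median of 1.21. Dsg3, the desmosomal cadherin of basal keratinocytes, was at 100.5 CPM against 2.0 CPM (log2 ratio 5.65, 5.48 to 5.81). Cdh3, which encodes P-cadherin, was at 17.6 against 0.56 CPM and Pkp1, a desmosomal plaque protein, at 102 against 25.0 CPM. Dsg2 and Dsc2, the cadherins of simple epithelia, were within 2-fold, with log2 ratios of -0.02 and -0.59. Among transcription factors of basal cells, Trp63, Snai2 and Tfap2c were higher and Sox9 was lower, at 108 against 369 CPM. Snai2, a zinc finger factor of the Snail family, was at 20.1 against 0.71 CPM.

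The 20 highest ratios over the 2740 genes that reached 50 CPM in one of the classes went beyond these lists. Igfbp2, which binds insulin-like growth factors, was at 355 against 3.98 CPM, a log2 ratio of 6.48 (6.37 to 6.59), with UMIs in only 36.3% of the basal-gated cells. Ifi202b, an interferon-inducible gene of the p200 family, was at 503 against 7.23 CPM and Calcb, a calcitonin gene-related peptide, at 443 against 6.70 CPM. Calcb is read beside Calca, its close paralogue on the neuroendocrine list, at 12.4 CPM, since reads may be shared between them, and the other 5 genes of that list were under 5 CPM in both classes. Aqp3, a water and glycerol channel of basal epidermis, reached 886 against 15.8 CPM and Lmo1, a LIM-domain factor, 317 against 6.15 CPM. Gsdmc2, Upk3bl, Fmod, Sncg, Gm42835 and Stmn2 were also in the ranking, with log2 ratios between 4.71 and 5.61, along with S100a4, a calcium-binding protein, at 754 against 24.0 CPM. Stmn2 was concentrated in 12.5% of the cells.

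Luminal and secretory genes were lower. Of 12 luminal genes 6 were at least 2-fold lower (Krt8, Krt18, Krt19, Cldn3, Cd24a and Dpp4) and 1, Krt7, was higher at 684 against 319 CPM, with a list median of -0.57. Krt8 was at 1046 against 5088 CPM (log2 ratio -2.28) and Krt18 at 898 against 4750 CPM (-2.40). Krt8 and Krt18 together reached 20 per 10000 UMIs in 243 basal-gated cells (29.7%) and in 91.2% of non-basal cells, and the 585 non-basal cells below that level stayed in the comparator. Cldn4 and Cldn7, which form tight junctions, were within 2-fold. Clu, a secreted chaperone, was at 1646 against 7384 CPM. Of 7 proximal luminal genes 3 were higher and 1 lower. Psca was one of the 3, at 114 against 48.1 CPM, but it was at 29.2 CPM without subclusters 4 and 5, below the non-basal cells. Of 4 tested urothelial genes 3 were lower. Only 5 of 12 androgen-regulated genes were tested, of which 1 was lower.

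All 7 seminal vesicle genes were lower, with a median of -3.27. Svs4, a seminal vesicle secretion gene, was at 2883 CPM in basal-gated and 27720 CPM in non-basal cells. The same gene was at 1337 CPM in the immune cells, and subcluster 4 of the basal-gated cells held 19062 CPM. How much free RNA from other cells adds to these levels was not tested. Without subclusters 4 and 5, described below, Svs4 fell to 874 CPM, under that of the immune cells. The 20 lowest ratios ran from Spink1 at -4.56 to Adgrg7 at -3.52. They included Sva, Svs1, Svs3a and Svs6 of the seminal vesicle, the alpha-defensins Defa5 and Defa22, Vil1, the brush border actin binder villin, at 3.84 against 58.5 CPM, and Elf5, an epithelial transcription factor, at 9.26 against 114 CPM.

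Genes of stratified squamous differentiation, the programme of epidermis and its appendages, were mostly higher, 9 of 13 tested, with 1 lower and a median of 1.88. Sfn, which encodes 14-3-3σ, was at 4792 against 444 CPM and Lgals7, galectin-7, at 1652 against 158 CPM. Ivl, a cornified envelope protein, was at 624 against 65.2 CPM and Tgm1, the transglutaminase that cross-links it, at 32.0 against 7.28 CPM. Suprabasal and late markers were uneven. Krtdap, a gene of differentiating keratinocytes, was at 18.4 against 2.46 CPM, with 242 CPM in subcluster 9, and Krt10, a suprabasal keratin, at 23.0 against 10.4 CPM. Lor, which encodes loricrin, had a log2 ratio of -0.41, and Krt1 had 5 UMIs in all basal-gated cells. Sbsn was lower, at 90.2 against 294 CPM, and Ly6d, a surface protein of several epithelia, was high in both classes at 5190 and 4875 CPM. Outside the gate rule, the stress and wound keratins Krt6a, Krt16 and Krt17 were at 1055, 569 and 1032 CPM, against 194, 65.7 and 131 CPM.

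**Figure D2:**
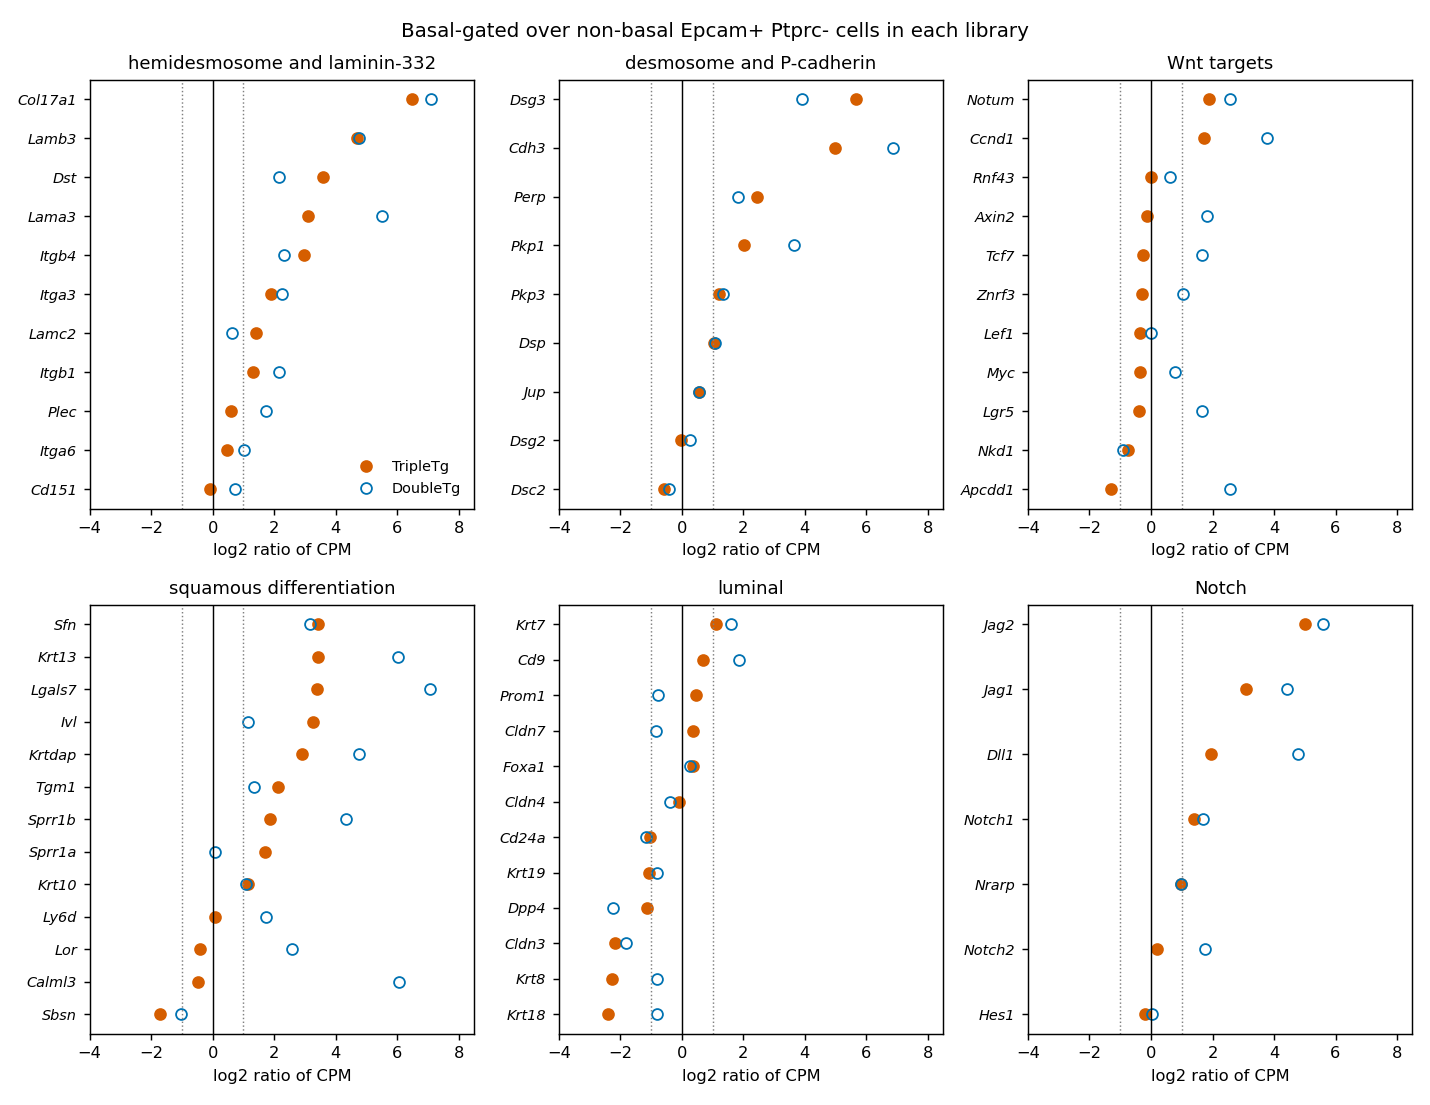
Log2 ratio of CPM of basal-gated over non-basal Epcam+ Ptprc- cells for the genes of 6 lists with at least 5 CPM in a TripleTg class (filled, TripleTg; open, DoubleTg; dotted lines, 2-fold). Col17a1 and Dsg3 lie at 6.47 and 5.65 in TripleTg, Axin2 at -0.12, and Krt8 and Krt18 at -2.28 and -2.40.

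The same contrast in DoubleTg gave a partly shared list. Among 8380 genes tested in both libraries, 451 were at least 2-fold higher in both, which is 61.8% of the 730 TripleTg genes and 37.9% of the 1191 DoubleTg genes, where 14.6% of genes tested in DoubleTg were past 2-fold higher. Of the 623 lower TripleTg genes 385 were at least 2-fold lower in both. Of the 730 higher TripleTg genes 33 were at least 2-fold lower in DoubleTg, as were 1019 of all 8380 genes. Of the 623 lower TripleTg genes 20 were at least 2-fold higher in DoubleTg, as were 1191 of all 8380 genes. Col17a1 and Lamb3 had DoubleTg log2 ratios of 7.10 and 4.75, near the TripleTg ones. Krt8 and Krt18 were less separated in DoubleTg, at -0.81 and -0.79, and 81.9% of the DoubleTg basal-gated cells reached 20 per 10000 of Krt8 and Krt18. Whether the libraries differ in these ratios beyond animals was not tested.

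Paracrine genes varied by pathway. In Notch signalling, a contact pathway between neighbouring cells, 4 of 7 tested genes were higher and none lower. Jag2, a ligand, was at 13.1 against 0.41 CPM, the ligands Jag1 at 43.6 against 5.10 CPM and Dll1 at 7.84 against 2.03 CPM, and the receptor Notch1 at 54.5 against 20.8 CPM. Hes1, a Notch target, was within 2-fold at 640 against 728 CPM. In the TGF-β and BMP list 4 of 11 tested genes were higher and 1 lower. Inhba, the activin βA subunit, was at 79.6 against 5.84 CPM, and Fst, the secreted activin antagonist follistatin, at 693 against 117 CPM. In the EGF receptor family 3 of 9 tested genes were higher and 2 lower. Egfr, the EGF receptor, was at 111 against 42.7 CPM and its ligand Ereg at 90.8 against 24.9 CPM, while Erbb3 and the ligand Btc were lower, at 29.8 against 60.7 CPM and 32.1 against 103 CPM.

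Among 17 tested cytokine genes 7 were lower and 2 higher. The alarmin Il33 was at 430 against 30.3 CPM and the neutrophil chemokine Cxcl5 at 65.4 against 17.8 CPM. Cxcl5 was at 655 CPM in subcluster 5, and without subclusters 4 and 5 it was within 2-fold of the non-basal cells, at 28.6 CPM. Cxcl1 and Cxcl2 were lower, at 65.3 against 203 CPM and 84.3 against 321 CPM, and immune cells held 2311 and 9202 CPM of these. Of 16 matrix and mesenchymal genes 6 were higher and 5 lower. Itga2, an integrin that binds collagen and laminin, was at 58.0 against 10.2 CPM, Fn1, fibronectin, at 113 against 25.9 CPM and Mmp14, a membrane matrix metalloprotease, at 102 against 18.1 CPM. Vim, vimentin, was lower at 27.4 against 95.8 CPM and Cdh1, E-cadherin, within 2-fold at 287 against 255 CPM.

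Summed immune, fibroblast, endothelial and smooth muscle markers were lower in the pooled basal-gated cells than in the non-basal cells. The summed level of the 6 immune markers other than Ptprc was 125 CPM in basal-gated and 207 CPM in non-basal cells, and 29882 CPM in the immune cells. All 6 were lower in basal-gated than in non-basal cells, and in the subclusters the sum ran from 75.6 to 230 CPM. The 6 fibroblast markers summed to 246 against 350 CPM, and Dcn made up 212 CPM of it. The 5 endothelial markers summed to 10.7 against 35.2 CPM and the 7 smooth muscle markers to 21.3 against 35.1 CPM, with Cnn1 at 0 in the basal-gated cells. No tested gene of these 4 lists was at least 2-fold higher in the pooled cells. In subcluster 0, however, the fibroblast sum was 628 CPM, with Dcn at 596 CPM. The smooth muscle sum was 136 CPM in subcluster 6. Both sums were above those of the non-basal cells. The part of these other cell types in the ratios was not tested.

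Of 11 genes of HGF and MET signalling 2 were higher and 2 lower, and the transgenes lay in opposite orders. hHGFtg was at 307 CPM in basal-gated cells, against 46.4 CPM in non-basal and 33.9 CPM in immune TripleTg cells, a log2 ratio of 2.72 (2.68 to 2.77). After thinning it was seen in 50.2% of basal-gated, 11.2% of non-basal and 5.18% of immune cells. Mouse Hgf was at 64.4 against 11.3 CPM, and it made up 17.3% and 19.6% of the summed hHGFtg and Hgf UMIs in these classes, 37.8% in the immune cells and 12.2% in DoubleTg basal-gated cells. How many reads these similar sequences share was not measured. hMETtg was at 27.2 against 40.6 CPM (log2 ratio -0.58, -0.71 to -0.45), with thinned shares of 9.54% in basal-gated, 13.5% in non-basal and 1.55% in immune cells. Mouse Met was at 97.9 against 65.7 CPM. Plat, a plasminogen activator, was lower at 250 against 941 CPM, as was Hpn, the serine protease hepsin, at 2.79 against 22.4 CPM.

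Of 12 Wnt target genes 10 were lower in basal-gated than in non-basal TripleTg cells, most of them by less than 2-fold. The summed level of the 12 was higher, at 519 against 375 CPM. The median log2 ratio of the 11 tested genes of 12 was -0.28, with 2 higher, 1 lower and 8 within 2-fold. Axin2 (chromosome 11, 108920349 to 108950783, plus strand) was at 67.9 against 73.6 CPM (log2 ratio -0.12, -0.20 to -0.03) and Nkd1 at 34.5 against 58.0 CPM. Notum, a secreted enzyme that inactivates Wnt ligands, was higher in basal-gated cells at 110 against 30.0 CPM (1.88, 1.81 to 1.95), as was Ccnd1, cyclin D1, at 178 against 53.4 CPM. Apcdd1 was lower at 3.73 against 9.22 CPM. Wif1, a secreted Wnt-binding inhibitor outside the list that was picked after its values were seen, was at 708 against 127 CPM (log2 ratio 2.48).

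Of 14 tested Wnt ligands and receptors 4 were higher and 1 lower. Wnt10a was at 70.2 against 4.70 CPM, Wnt6 at 93.7 against 31.6 CPM, Wnt11 at 14.0 against 6.37 CPM and the receptor Fzd6 at 21.8 against 6.20 CPM. Wnt4 and Wnt7b were within 2-fold, at 84.6 against 117 CPM and 55.5 against 87.1 CPM. Ctnnb1 itself was at 282 against 218 CPM. Reads at the 3′ end do not tell the allele without exon 3 from the intact one, so recombination of Ctnnb1 was not measured.

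Against the DoubleTg basal-gated cells the Wnt feedback genes differed far more. Of 10 tested target genes 6 were at least 2-fold higher in TripleTg and 2 lower, with a median log2 ratio of 2.72, where the median over 9110 genes was -0.14 and 9.82% of them were past 2-fold higher. Nkd1 was at 34.5 against 1.04 CPM (5.05, 4.57 to 5.57), Notum at 110 against 5.96 CPM, Lef1 at 5.63 against 0.45 CPM, Axin2 at 67.9 against 6.78 CPM and Lgr5 at 9.83 against 1.13 CPM. Ccnd1 and Myc, which many mitogenic pathways regulate, were lower, at 178 against 434 CPM and 42.2 against 159 CPM. Wif1 was at 2.08 CPM in the DoubleTg basal-gated cells. In thinned cells Axin2 was seen in 20.8% of TripleTg basal-gated cells, 2.75% of DoubleTg basal-gated cells and 8.29% and 4.68% of the respective immune cells, so the DoubleTg basal-gated share lay below that of its immune cells. Within DoubleTg, however, 5 of 7 tested Wnt targets were at least 2-fold higher in basal-gated than in non-basal cells, with a median log2 ratio of 1.66.

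UMIs of at least 2 of 10 Wnt feedback genes (Axin2, Lef1, Tcf7, Nkd1, Notum, Rnf43, Znrf3, Lgr5, Apcdd1 and Sp5) were found in 198 of 765 thinned TripleTg basal-gated cells, 25.9% (22.8 to 29.1). The share was 31.4% (30.2 to 32.7) in non-basal and 2.59% in immune TripleTg cells. In DoubleTg it was 2.09% in basal-gated cells, below the 5.04% (2.78 to 8.31) of its immune cells. None of the 10 had a UMI in 41.8% of the TripleTg basal-gated cells, 80.7% of the DoubleTg basal-gated cells and 88.4% of the DoubleTg non-basal cells. The classes share a library and the counting intervals do not stand for animals.

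**Figure D3:**
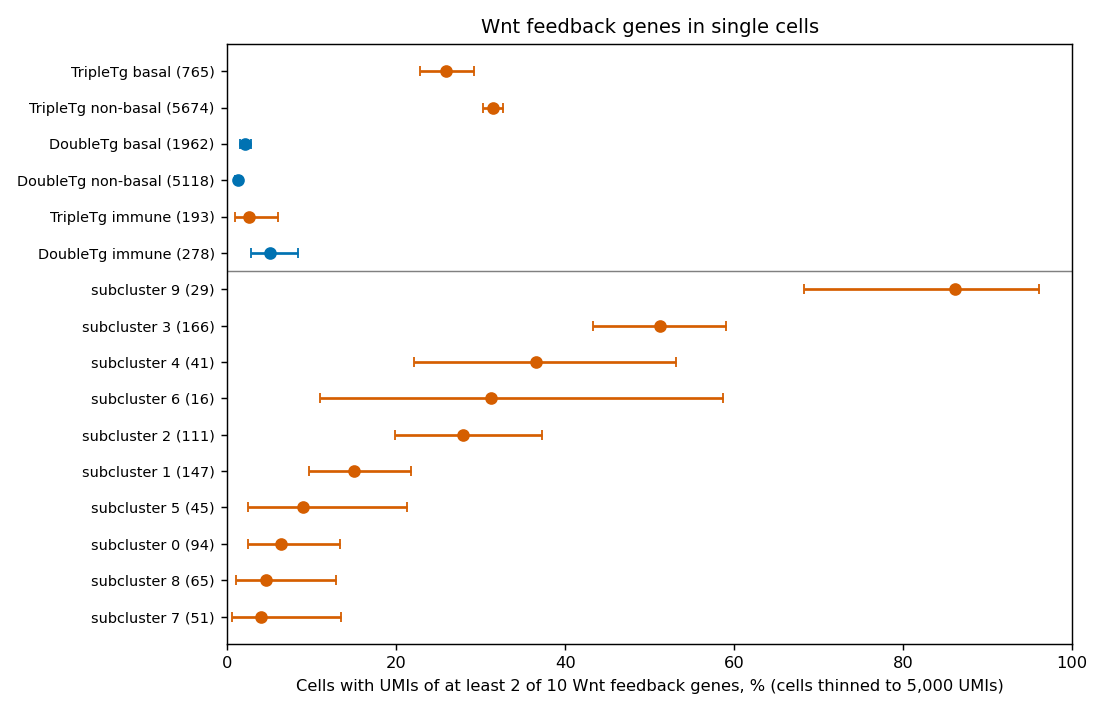
Share of cells (%, with exact binomial 95% bars for counting error) that held UMIs of at least 2 of 10 Wnt feedback genes after thinning to 5000 UMIs, by class (top; orange, TripleTg; blue, DoubleTg) and by subcluster of the TripleTg basal-gated cells (bottom), with cell numbers in brackets. The TripleTg basal-gated cells stand at 25.9% and the DoubleTg ones at 2.09%, and the subclusters run from 3.92% in subcluster 7 to 86.2% in subcluster 9.

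Hemidesmosome and laminin-332 genes differed less between the genotypes than Wnt feedback genes, with a median log2 ratio of -0.41. Of these 11 genes 10 were within 2-fold of the DoubleTg basal-gated cells and 1, Itga3, was lower. Most genes were within 2-fold in this comparison, since 9.82% of the 9110 tested were past 2-fold higher and 12.2% lower. Trp63 was higher in TripleTg at 70.5 against 13.0 CPM (2.44, 2.29 to 2.60), and so was Dsg3 at 100.5 against 1.15 CPM (6.45). Squamous genes were higher in 8 of 13, among them Ivl at 624 against 55.6 CPM and Sprr1b at 21.9 against 0.31 CPM, while Krt13 was lower at 31.3 against 121 CPM. The 10 highest ratios held Mt4, a metallothionein of stratified squamous epithelium, at 420 against 0.37 CPM, and Stmn2, along with Svs3a, Svs6, Alb, the defensins Defa20, Defa21 and Defa22, and the predicted genes Gm15308 and Gm21002. Most UMIs of Defa20, Gm15308 and Gm21002 lay in the 30 cells of subcluster 9, with 1978 of 3035, 2958 of 4388 and 1258 of 1735. Svs6 and Alb were at 125 and 147 CPM in TripleTg immune cells as well, levels near or above those of the basal-gated cells, 160 and 66.0 CPM. The 10 lowest, included the secretory genes Sbp and Msmb, with 0 UMIs in TripleTg, and Pbsn, the probasin gene, with 10 UMIs. DoubleTg non-basal cells held 58976 CPM of Sbp, and DoubleTg immune cells 2163 CPM of Sbp, 217 CPM of Msmb and 94.8 CPM of Pbsn, against 6382, 777 and 410 CPM in the DoubleTg basal-gated cells. Of 11 tested androgen-regulated genes 8 were lower in TripleTg, where 12.2% of all genes were, and 1 was higher.

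Few basal-gated cells were cycling. UMIs of at least 3 of 15 proliferation genes were found in 18 of 765 thinned cells, 2.35% (1.40 to 3.69), against 4.35% (3.84 to 4.92) of non-basal TripleTg cells and 0.204% of DoubleTg basal-gated cells. The 9 tested proliferation genes had a median log2 ratio of -0.57 over the non-basal cells. Only Tpx2 was past 2-fold, at 17.3 against 5.64 CPM. The study examined the nuclear export gene Xpo1, the ribosomal and translation genes Rpl12, Rps16 and Eif4a1, and the transcription factor gene Sp1. In the basal-gated cells all were within 2-fold of both the non-basal TripleTg and the DoubleTg basal-gated cells, with medians of 0.20 and 0.03. So were most genes. Against the non-basal cells 10.1% of all tested genes were past 2-fold higher and 9.22% lower. Against the DoubleTg basal-gated cells the shares were 9.82% and 12.2%. The study compared other sets, among them hMETtg+ epithelial cells and luminal clusters at a lower fold limit, and RNA and protein in tissue. These values do not repeat its comparisons.

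The basal-gated cells were not uniform. Leiden clustering at a resolution of 0.5 gave 10 subclusters of 16 to 171 cells, which are numbered here and described by their leading genes, since the same genes formed them. Values are CPM in the named subcluster against the other basal-gated cells. Haemoglobin RNA, a sign of red blood cells, differed between the pooled subclusters, at 1920 to 7719 CPM in subclusters 3, 5, 7, 8 and 9 and 102 to 206 CPM in the others. Of the 818 cells, 13 held over 64 haemoglobin UMIs per 10000 UMIs, a limit set after the values were seen. Without these cells the subclusters ranged from 83.8 to 206 CPM. The largest, subcluster 3 with 171 cells, led with Jchain, Mt3, Calm4, S100a7a, Cnfn, Mt4, Igfbp2 and Sprr1b. Mt4 was at 1271 against 163 CPM and Igfbp2 at 1040.5 against 147 CPM. Wnt6 was at 236 CPM there and Wif1 at 1458 CPM. Luminal keratin was least in this subcluster, with a median of 3.54 Krt8 and Krt18 UMIs per 10000.

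Subcluster 9, with 30 cells, had the highest Wnt feedback. Axin2 was at 219 CPM, Nkd1 at 285 CPM, Notum at 269 CPM and Lef1 at 56.1 CPM, and 86.2% (68.3 to 96.1) of its thinned cells held at least 2 of the 10 feedback genes, against 51.2% (43.3 to 59.0) in subcluster 3. Its leading genes included Igfbpl1, Hdc and Krt28, a keratin of the hair follicle inner root sheath. Krt42, another keratin, was at 1405 CPM and Mt4 at 2486 CPM. Trp63 was highest here, at 198 CPM, while Krt15 was at 28.1 CPM. Ivl and Il33 were at 4.43 and 5.91 CPM. Defa20 was at 2922 CPM and Gm15308 at 4370 CPM in these cells, against 632 and 945 CPM in the non-basal cells.

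Subcluster 1, with 147 cells, had the highest involucrin level. Ivl was at 2423 against 215 CPM and Il33 at 1477 against 191 CPM, beside Fabp4 at 609 against 44.7 CPM. It had the highest hHGFtg level, 564 CPM, and hMETtg was at 54.8 CPM. Subcluster 2, with 113 cells, led with Ccl5, Ifit1, Rsad2, Isg15 and Cxcl10, genes that interferons induce, and Isg15 was at 180 against 18.9 CPM. Its Notum level was 121 CPM and its Col17a1 level 345 CPM. The 16 cells of subcluster 6 led with Hist1h1b, Ube2c, Kif11, Nusap1, Mki67 and Top2a, and 15 of these 16 cells met the cycling rule.

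Subclusters 0, 5, 7 and 8 had little Wnt feedback. The shares with at least 2 feedback genes were 6.38%, 8.89%, 3.92% and 4.62%, below the 25.9% of all basal-gated cells. In the TripleTg immune cells the share was 2.59%. None of the 10 genes was seen in 59.6%, 80%, 74.5% and 73.8% of their cells, in the same order, against 84.5% of immune cells. Notum was at 41.2 CPM in subcluster 0 and 32.2 CPM in subcluster 8, above the 6.0 CPM of immune cells. Subcluster 0, with 110 cells, led with Ifitm1, Krt13 and Krt15, the latter at 4339 against 1120 CPM. Subcluster 7, with 62 cells, led with Trem2, Tmem171, Sult5a1, Akap12 and Gstm2, had no Notum UMI, and had Ccnd1 at 703 CPM and hMETtg at 1.74 CPM. Dsg3 was at 3.47 CPM in it. Both were shallow, with medians of 9068.5 and 8928 UMIs. Subcluster 8, with 69 cells, led with Amtn, Krt75, Gpc3, Spink5 and Postn, had S100a4 at 4557 CPM, and had the highest Col17a1, 731 CPM.

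The profiles were set beside the DoubleTg basal-gated cells over 5418 genes at 20 CPM or more in either class, with each sum thinned to 500000 UMIs and the gate keratins left out. Spearman's rho was highest for subclusters 0 and 7, at 0.82 and 0.79, and lowest for subclusters 9 and 3, at 0.62 and 0.66. These values describe genes, which are not independent, and the TripleTg profiles share a library and its free RNA. With the TripleTg non-basal cells rho was higher than with the DoubleTg basal-gated cells in subclusters 1, 3, 4, 5, 6 and 9, at 0.74 in subcluster 3 and 0.88 in subcluster 4. It was 0.73 in both subclusters 0 and 7. The leading genes of subcluster 7 did not all resemble DoubleTg, where Csf3 was at 102 CPM against 137 CPM in the subcluster but Akap12 at 12.7 CPM against 912 CPM.

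Markers in subclusters 4 and 5 departed from the basal label, and those of subcluster 7 did in part. Subcluster 7 had Col17a1 at 66.0 CPM and a median of 25.0 Krt8 and Krt18 UMIs per 10000, but Itgb4 at 144 CPM. Subcluster 5, with 46 cells, passed the gate through Krt15 at 3621 CPM, with Krt5 at 70.1 CPM, Krt14 at 124 CPM, Col17a1 at 18.8 CPM and Trp63 at 6.84 CPM. It led with Clca1, Cxcl17, Lgals4, Cyp2f2, Mme, Psca and Pigr, had Krt8 at 3735 CPM, and Psca, a marker of proximal luminal cells, was at 1415 CPM. Subcluster 4, with 54 cells, held basal and secretory genes together, with Krt14 at 1764 CPM, Krt8 at 3354 CPM and Svs4 at 19062 CPM. Of its cells 68.5% were among the 6% of the library with the highest Scrublet doublet scores, against 0 to 6.25% in the other subclusters, and its median depth was the highest at 39729 UMIs. Without subclusters 4 and 5, 718 cells remained, those of subcluster 7 among them. Col17a1 was then at 265 CPM, Trp63 at 80.2 CPM and Krt8 at 573 CPM.

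**Figure D4:**
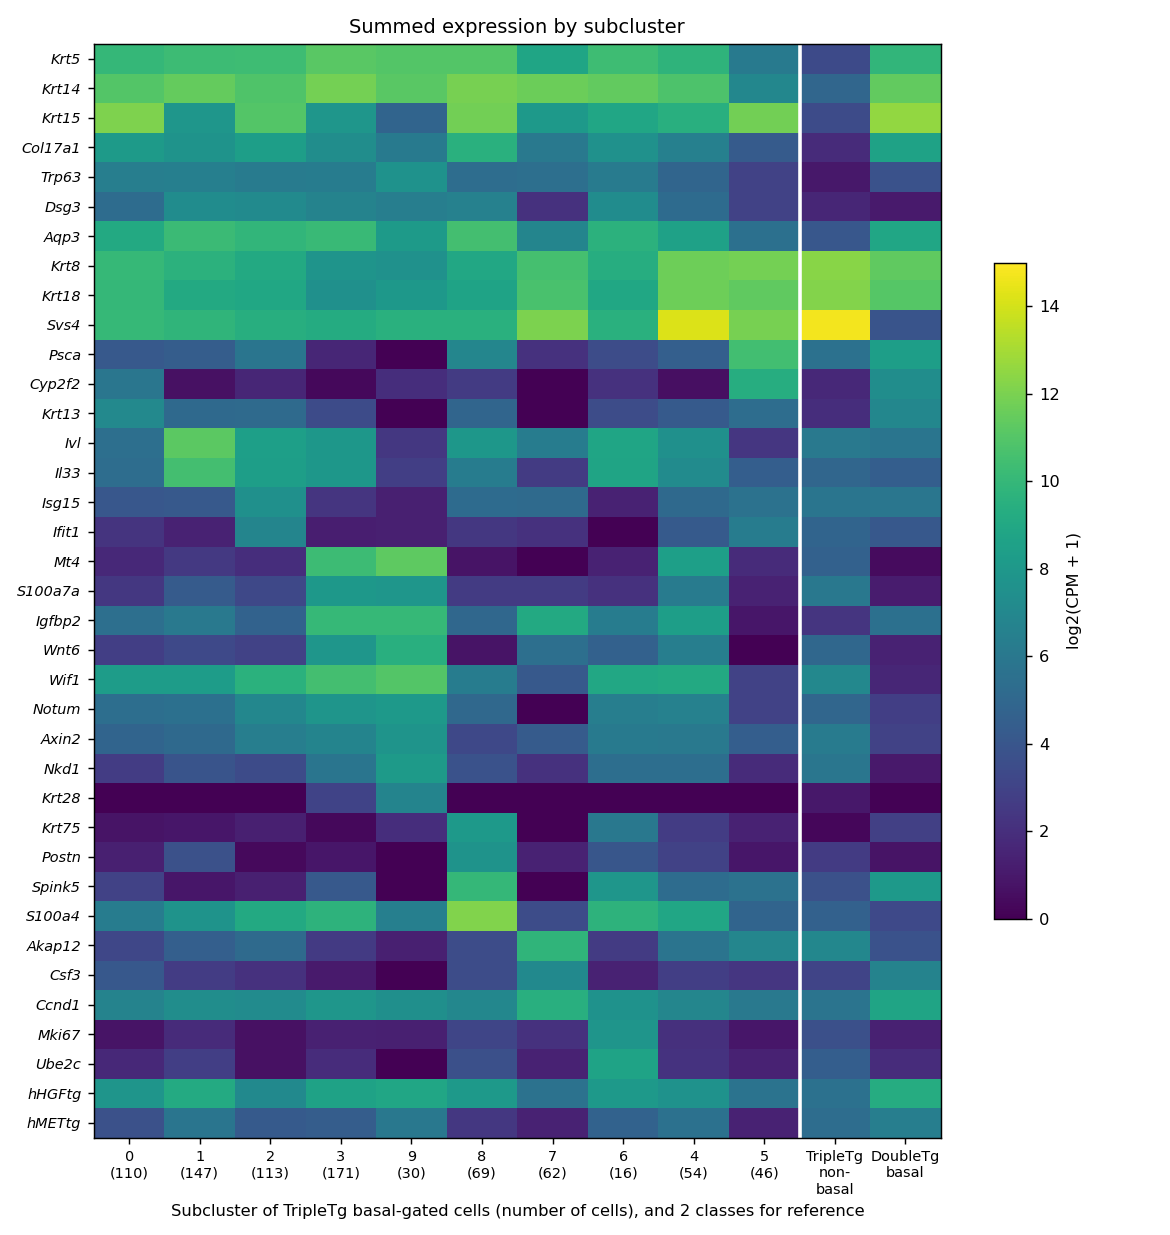
Summed expression as log2(CPM + 1) of leading and reference genes in the 10 subclusters of the TripleTg basal-gated cells (cell numbers in brackets), with the TripleTg non-basal and DoubleTg basal-gated cells at the right. Wif1 reaches 2050.5 CPM in subcluster 9 and 1458 CPM in subcluster 3, against 17.4 CPM in subcluster 7, and Krt5 is at 70.1 CPM in subcluster 5.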

How the data were processed

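Per the labels, tissue was dissociated with collagenase and TrypLE and sequenced with 10x Genomics 3′ chemistry. The authors deposited raw UMI counts per gene and cell, made with Cell Ranger (6.0.2 in the submitters' processing notes, 6.1.1 in the header of the DoubleTg matrix, none in that of TripleTg) on mm10 with both transgenes added. The study's limits of 200 to 7000 genes and under 15% mitochondrial UMIs had been applied to TripleTg before deposit and were applied here to DoubleTg, which kept 10598 of 12072 cells. Both numbers are larger than those the study states for DoubleTg, and the cause was not tested. Counts were summed per class and sums under 3 UMIs were set to 3. Intervals are exact Poisson, exact binomial (Clopper-Pearson) and, for ratios, conditional binomial. Subclusters used scanpy 1.11.5 on 2000 variable genes, 20 components and 15 neighbours. Positions are from GENCODE M21 on GRCm38. With 1 library per genotype and a gate on measured values, no test was run.

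Named genes are those of 25 lists, the 20 highest and 20 lowest ratios within TripleTg and the 10 highest and lowest between genotypes at 50 CPM or more, and up to 10 leading genes per subcluster. The members, lists and comparisons were chosen with earlier results of these data known. Doublets were not removed. A few genes are not reported here.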

Additional observations from a re-analysis of the deposited data

Results flagged for a closer look

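Among the named genes with at least 50 CPM in a class of each library, 2 lay past 2-fold in opposite directions between basal-gated and non-basal cells of the 2 genotypes. The difference was not tested, since each genotype is 1 library. Spink5, a serine protease inhibitor of stratified epithelium, had a log2 ratio of 2.92 in TripleTg, with 94.0 CPM in basal-gated and 12.4 CPM in non-basal cells, and of -2.14 in DoubleTg, with 274.5 and 1210 CPM. In TripleTg it was concentrated in subcluster 8, at 1022 CPM. Lcn2, the siderophore-binding protein lipocalin-2, had a log2 ratio of -1.61 in TripleTg, with 273 and 833 CPM, and of 1.56 in DoubleTg, with 489 and 166 CPM. Within the TripleTg basal-gated cells it ran from 17.7 CPM in subcluster 9 to 2325 CPM in subcluster 7.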

How the results depend on the processing

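Of 66 values recomputed under alternative settings, 60 stayed within the margin set for them and 6 moved. A change of direction could be called only for the 6 values of the TripleTg over DoubleTg Wnt target median, and none was. The count of 912 higher and 831 lower genes became 1398 and 1466 with a minimum of 1 CPM, and 299 and 199 with a minimum of 50 CPM, since fewer or more genes are then counted. A gate of 40 per 10000 left 508 cells. The Wnt target median of TripleTg over DoubleTg basal-gated cells was 2.02 with thinned cells, where the cause was not tested, and 2.39 to 2.80 in the other alternatives. That of basal-gated over non-basal cells ran from -0.42 to -0.25. The counts of 8 hemidesmosome and laminin-332 genes and of 6 luminal genes were the same in all 11 alternatives. Settings chosen after seeing the data were the removal of the 6% highest Scrublet scores, of subclusters 4 and 5, and of comparator cells low in Krt8 and Krt18. The planned removal of Scrublet calls was not run, since its threshold called 0 TripleTg cells. No paired analysis was possible because each genotype has 1 library. Leiden resolutions of 0.3 and 1 gave 9 and 13 subclusters, and at least 54.4% of each subcluster stayed together. This share does not register merging, and at 0.3 subclusters 6 and 8 fell into 1 cluster of 85 cells. Free RNA was not measured, and Svs4 at 1337 CPM in immune cells limits statements on low secretory levels.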
